A study of Mus musculus with 7 samples.

Results

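Homeobox, Pax and POU genes encode DNA-binding transcription factors that give cells their place and type in the embryo. They were followed here in mouse glioma cells that carried 2, 1 or 0 intact alleles of Ptprd, a receptor-type protein tyrosine phosphatase. The set comprised each gene whose symbol placed it in the Hox, Dlx, Lhx, Pax, Meox, Msx, Emx, Otx, Irx, Nkx or Pou families, or in that of Six3 and Six4, and which a probe set named alone. This gave 90 of the 12393 genes named on the array, with 121 probe sets, and no Emx symbol was among them. A gene with several probe sets, as 24 members had, was read from the brightest over the arrays. Of the 90 members, 34 lay above the 30th percentile of an array on at least 2 arrays, the limit for testing, and 13 lay above the 50th percentile on at least 2.

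Sorted tumour cells had been measured on 7 Affymetrix expression arrays. The groups were Ptprd+/+p16-/- (wild type, n = 2), Ptprd+/-p16-/- (heterozygous, n = 2) and Ptprd-/-p16-/- (null, n = 3), so that p16, a cell cycle inhibitor, was absent from the controls as well. All mice had a mixed C57/BL6 and FVB/N background and were injected in the brain on postnatal days 1 to 3 with RCAS PDGFB GFP, a retroviral vector of birds that encodes the growth factor PDGFB and green fluorescent protein. Only cells with the receptor tv-A, made from the Nestin promoter of neural progenitors, take up this vector. Tumour cells positive for the marker and negative for the dead-cell dye DAPI were collected at symptoms or at 12 weeks, an age that the labels do not give per sample. The labels describe biological replicates without naming the mice, so the p-values cover only the spread from array to array.

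The heterozygous arrays were set off from the rest. They correlated with wild-type and null arrays at 0.976 to 0.987 over all probe sets, and wild-type with null arrays at 0.990 to 0.995. All 8 oligodendrocyte progenitor markers, the cell state of these tumours, lay above the limit, and 5 of them were lower in heterozygous than in wild-type cells. Of 13 macrophage markers above the limit (Aif1 and Itgam were not), 11 were higher in heterozygous cells, Ptprc and Cd68 among them. Of all genes tested, 4.20% were higher and 5.95% lower in heterozygous than in wild-type cells. The mean log2 level of the 13 macrophage markers was 6.97 and 7.32 on the heterozygous arrays and 5.46 to 6.23 on the others. Among 7 astrocyte markers, Gfap and Aldh1l1 were higher in heterozygous cells and S100b was lower. Aldh1l1, Ptprc and Cd68 were above the limit on the heterozygous arrays only, so that their tests had to favour a difference. Also higher in heterozygous than in wild-type cells were 2 of 5 fibroblast markers (Col3a1 and Col1a2). Pdgfra, which stands on that list and on the progenitor list, was lower. Higher too were 2 of 4 ependymal and choroid plexus markers (Foxj1 and Rarres2) and 1 of 6 vascular markers (Tagln). Of 6 neuronal markers, Gad1 and Snap25 were lower. Tubb3, Nefl, Nefm and Stmn2 differed by 0.52, 0.44, 0.60 and 0.03 without passing. Sex-linked RNA differed within each group: Y-linked RNA without Xist marked wild type replicate 1 and null replicate 2, and both kinds were present in heterozygous replicate 1 and null replicate 1. Array medians were 6.62 to 6.71 (log2). Ptprd itself was 10.86 and 10.89 in wild type, 9.42 and 9.57 in heterozygous, and 9.61, 8.95 and 9.93 in null cells. Its RNA was thus lower on the 5 deficient arrays but did not separate heterozygous from null cells. Whether its probe sets lie in the targeted part is not known here.

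These families share the homeodomain or, in Pax genes, the paired domain, which binds DNA in front of target genes. Hox genes lie in clusters and set position along the hindbrain, cord and trunk. Otx, Six3, Lhx2, Dlx and Pax6 act in the forebrain, Irx genes pattern the neural tube, Nkx2-2 acts in ventral progenitors and oligodendrocytes, and the class III POU genes act in neural progenitors and glia.

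Among the 13 members above the 50th percentile were 4 POU genes (Pou3f1, Pou6f1, Pou3f4 and Pou3f2), 5 Irx genes (Irx1, Irx2, Irx3, Irx5 and Irx6), Nkx2-2, Nkx2-9, Six3 and Meox1. Another 21 lay between both limits, and 56 were not above the lower one. Above the lower limit were 5 of 31 Hox, 0 of 6 Dlx, 5 of 6 Irx, 1 of 8 Lhx, 1 of 2 Meox, 2 of 3 Msx, 7 of 11 Nkx, 1 of 1 Otx, 4 of 8 Pax and 6 of 9 Pou genes, and 2 of the 5 genes Six2 to Six6. A probe set's brightness also depends on its probes, so a dim one does not show that a gene is silent, and levels were compared between arrays and not between genes. The 2 members just inside the limit were Nkx2-4 and Nkx6-1, whose second highest array exceeded it by 0.00138 and 0.00184 (log2). Just outside lay Nkx2-5 and Nkx2-1, at -0.06 and -0.16 from it.

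**Figure D1:**
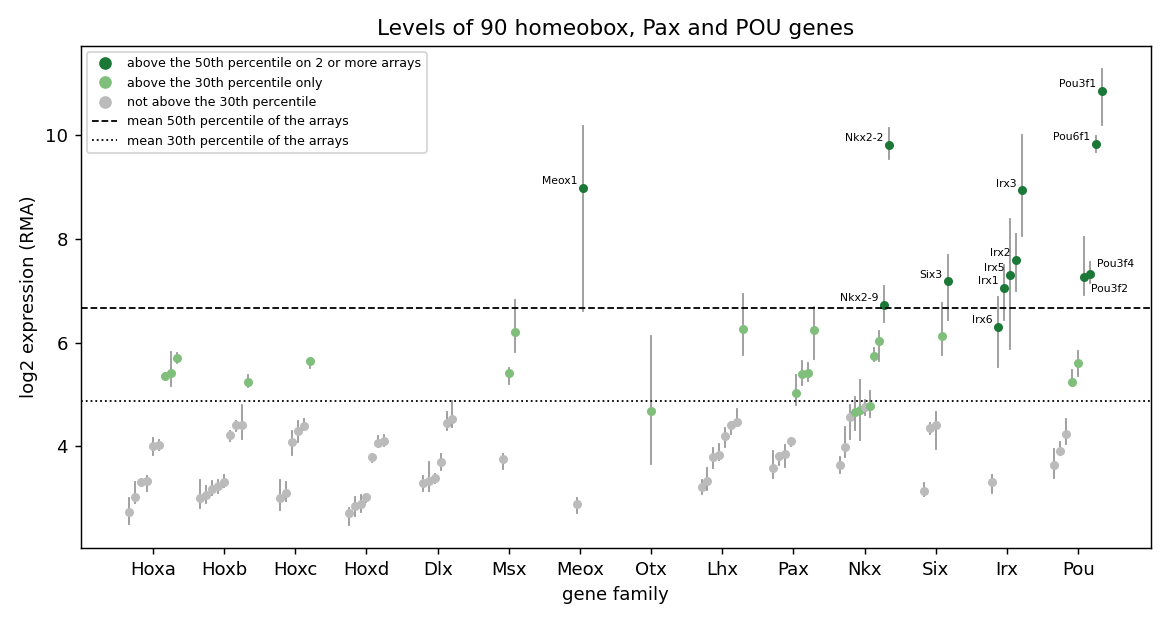
Mean log2 expression (RMA) of the 90 members by gene family, with lines from the lowest to the highest of the 7 arrays and with the arrays' mean 30th and 50th percentiles as horizontal lines. The Dlx genes and most Hox genes lie below the lower line, and 5 of 6 Irx genes are among the 13 dark green points.

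The Hox genes, which mark levels of the body axis behind the midbrain, had dim probe sets. Their ranges across the 7 arrays ran from 0.06 to 0.66 (log2). Above the limit were Hoxa3, Hoxa7, Hoxa9, Hoxb3 and Hoxc9, with mean log2 levels of 5.36, 5.71, 5.41, 5.24 and 5.64, and 0 of the 31 lay above the 50th percentile. Hoxa3 ranged over 0.06 (log2) across the 7 arrays, from 5.33 to 5.40, and its second probe set had a mean of 2.91. Its value was the same, 5.36161, on wild type replicate 2, both heterozygous arrays and null replicates 1 and 3. Hoxb3 (5.21542) and Hoxc9 (5.64495) also repeated a value on several arrays. Values repeated to the last digit limit what a narrow range or interval says about expression. Hoxa9 ranged from 5.17 in heterozygous replicate 1 to 5.81 in null replicate 1, and its second probe set had a mean of 3.28. The other 26 Hox genes had means from 2.71 to 4.42. Of the 5 tested, 0 passed the threshold in any comparison, and the genotype differences of Hoxa3 were -0.02 (heterozygous minus wild type, 95% interval -0.24 to 0.21) and -0.03 (null minus wild type, -0.23 to 0.18).

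**Figure D2:**
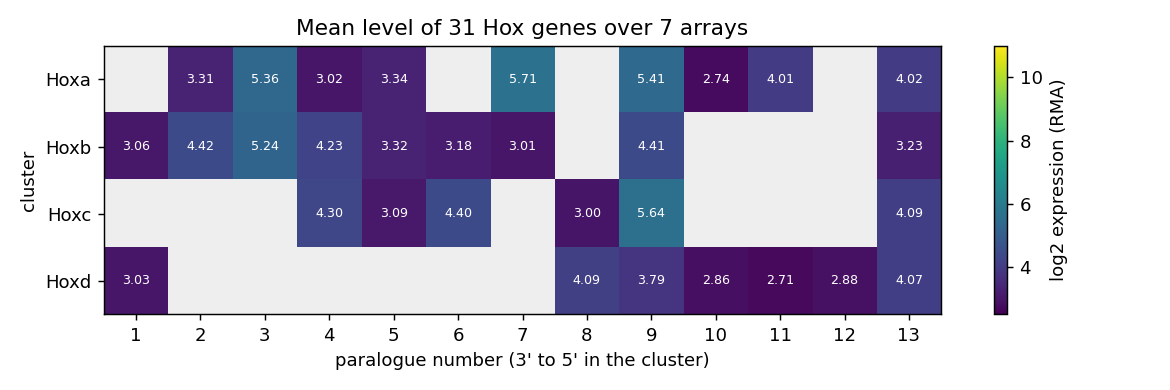
Mean log2 expression over 7 arrays of the 31 Hox genes, by cluster (rows) and paralogue number (columns), with grey cells for genes not in the set. Values run from 2.71 to 5.71, and the 5 genes above the limit are in paralogue groups 3, 7 and 9.

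Pou3f1, Nkx2-2 and Pou6f1 were among the bright probe sets on each array. Pou3f1 (Oct6), a regulator of glial differentiation best known from Schwann cells, had log2 levels of 10.73 and 10.93 in wild type, 10.20 and 10.79 in heterozygous, and 11.09, 10.88 and 11.27 in null cells. The null arrays lay above the heterozygous ones, by 0.59 on average, without passing the threshold (limma with Benjamini-Hochberg adjustment, adjusted p = 0.107). A dimmer Pou3f1 probe set followed a similar course, from 7.04 in heterozygous replicate 1 to 8.09 in null replicate 3.

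Nkx2-2, which acts in oligodendrocyte differentiation, measured 9.77 and 9.87 in wild type, 9.73 and 9.85 in heterozygous, and 10.13, 9.53 and 9.80 in null cells. The groups overlapped, and the null minus wild type difference was 0.00 (95% interval -0.40 to 0.41). Pou6f1, a POU factor of the brain, measured 9.97 and 9.85, then 9.67 and 9.81, then 9.82, 9.98 and 9.69 in the same order, while its other probe set stayed dim at a mean of 3.04. Both heterozygous arrays lay below both wild-type arrays, with a heterozygous minus wild type difference of -0.17 (95% interval -0.48 to 0.14), and the null arrays overlapped both groups.

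Pou3f2 (Brn2), a factor of neural progenitors and neurons, measured 7.08 and 7.31 in wild type, 6.92 and 7.14 in heterozygous, and 7.03, 8.04 and 7.25 in null cells. Null replicate 2 stood above the other 6 arrays. Pou3f4 (Brn4), of the same class, measured 7.14 and 7.36 in wild type, 7.15 and 7.56 in heterozygous, and 7.44, 7.31 and 7.30 in null cells, so its groups overlapped. Pou3f3 (Brn1), the last class III gene on the array, lay below the 50th percentile with a range from 5.36 to 5.84.

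**Figure D3:**
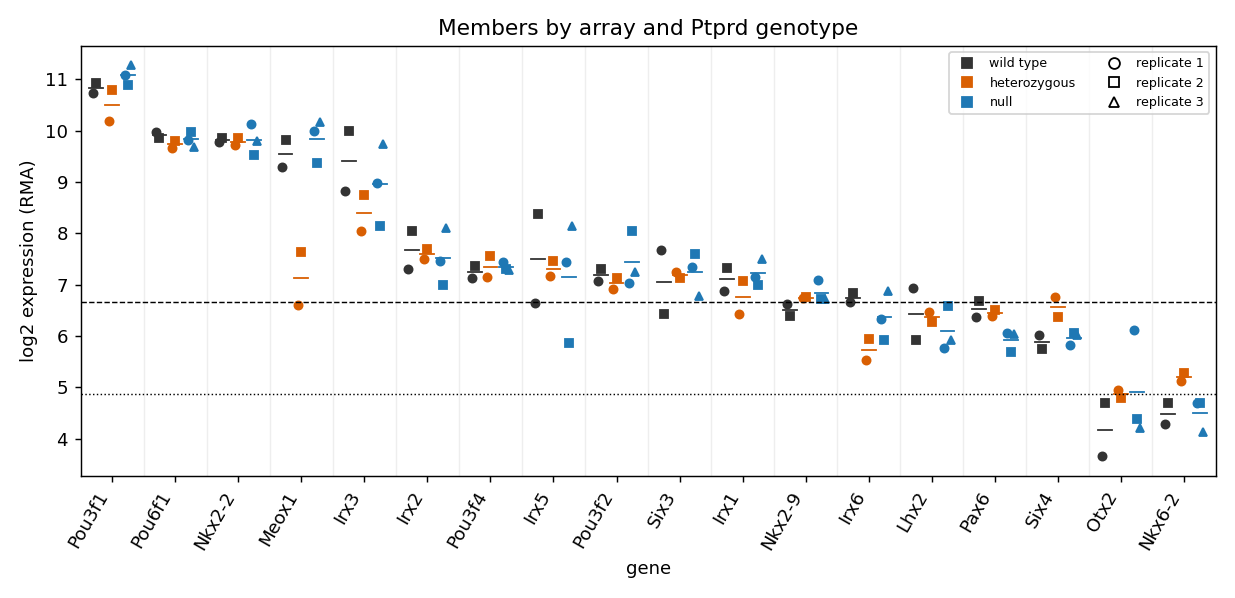
Log2 expression (RMA) of 18 members on the 7 arrays, coloured by Ptprd genotype, with marker shape for the replicate, short lines for group means, and the arrays' mean 50th (dashed) and 30th (dotted) percentiles. Meox1 is lower on both heterozygous arrays than on the other 5, and Irx3 and Irx5 spread widely within the wild-type and null groups.

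Between heterozygous and wild-type cells, 2 of the 34 members tested passed the threshold, Meox1 lower and Six4 higher, which is 5.88% of them. Of all 9243 genes tested, 10.1% passed, 4.20% higher and 5.95% lower, so the members' share was not above the background. The median log2 difference was -0.02 over the 34 members and -0.04 over all genes. An unadjusted p under 0.05 was found for 4 members (11.8%) and for 29.9% of all genes. The absolute difference exceeded 0.5 in 6 members (Meox1, Irx3, Irx6, Nkx6-2, Otx2 and Six4) and 1 in 3 of them (Meox1, Irx3 and Irx6).

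Meox1, a homeobox factor of the embryonic somites, was 5.39-fold lower in heterozygous than in wild-type cells. Its log2 levels were 9.29 and 9.81 in wild type, 6.61 and 7.64 in heterozygous, and 9.99, 9.36 and 10.16 in null cells. Both heterozygous arrays lay below each of the other 5. The group means were 9.55 ± 0.37 (SD, n = 2), 7.12 ± 0.73 (n = 2) and 9.84 ± 0.42 (n = 3). The heterozygous minus wild type difference was -2.43 ± 0.39 (log2, SE), with an adjusted p of 0.0165. Null cells were 6.57-fold higher than heterozygous ones (log2 difference 2.72 ± 0.36, adjusted p = 0.0117), and differed from wild type by 0.29 (95% interval -0.56 to 1.13, adjusted p = 0.929).

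The Meox1 differences went with the macrophage, progenitor and other cell type markers that set off the heterozygous arrays: the mean of the 8 progenitor markers was 11.33 and 11.66 there and 11.93 to 12.11 on the other arrays. Their part in the result was not tested, and in sorted but bulk RNA, fewer cells with a transcript and less of it per cell cannot be told apart. Leaving out wild type replicate 1, wild type replicate 2 or heterozygous replicate 1 ended the call against wild type, with log2 differences of -2.69, -2.17 and -1.91 and adjusted p of 0.0600, 0.120 and 0.0846. Without heterozygous replicate 1 the null minus heterozygous difference was 2.199 and also missed the threshold (adjusted p = 0.0672). Without both arrays that held Xist and Y-linked RNA the differences were -1.91 and 2.12 (adjusted p = 0.148 and 0.175). Meox2, the other gene of the family, was dim, from 2.72 to 3.01.

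Six4, a partner of the Eya coactivators in muscle and sensory organs, was 1.61-fold higher in heterozygous than in wild-type cells. It measured 6.02 and 5.75 in wild type, 6.77 and 6.38 in heterozygous, and 5.83, 6.06 and 6.02 in null cells. Both heterozygous arrays lay above the other 5. The heterozygous minus wild type difference was 0.68 ± 0.17 (log2, SE), at the edge of the threshold (adjusted p = 0.0499). The null minus heterozygous difference was -0.60 ± 0.16 (adjusted p = 0.0565). The call was lost in 16 of 17 alternatives, among them leaving out wild type replicate 1 (adjusted p = 0.105), wild type replicate 2 (0.252), heterozygous replicate 1 (0.218) or null replicate 1, 2 or 3 (0.0654, 0.0677 and 0.0742). The second Six4 probe set, with a mean of 3.83, ran from 3.61 to 4.13 and did not separate the groups, and the mean of both probe sets differed by 0.32 (adjusted p = 0.194).

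Irx6 and Nkx6-2 had the next smallest p in this comparison and missed the threshold. Irx6, of the Irx3 cluster, measured 6.66 and 6.84 in wild type, 5.53 and 5.95 in heterozygous, and 6.34, 5.92 and 6.88 in null cells. The heterozygous and wild-type groups did not overlap, and the difference was -1.01 ± 0.30 (log2, SE, adjusted p = 0.0736). It passed without null replicate 2 or null replicate 3. Nkx6-2, a factor of ventral progenitors and myelinating oligodendrocytes, measured 4.28 and 4.70 in wild type, 5.13 and 5.27 in heterozygous, and 4.70, 4.70 and 4.13 in null cells. It lay above the limit on the heterozygous arrays only and entered the tests through them, so its differences of 0.71 (heterozygous minus wild type) and -0.69 (null minus heterozygous) are a description. Of the 6 myelin markers, 0 passed the threshold in either comparison. In each, 2 had an unadjusted p under 0.05 in limma, as did 29.9% and 28.5% of all genes. Their median log2 difference was 0.74 (heterozygous minus wild type) and -0.45 (null minus heterozygous), beside -0.04 and 0.04 over all genes. Their part in the Nkx6-2 values was not tested.

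Between null and wild-type cells, 0 of the 34 members passed the threshold in limma, as did 0% of all genes tested. At an unadjusted p under 0.05 there were 1 member (2.94%) and 475 genes (5.14%). The median log2 difference was 0.08 over the members and -0.00 over all genes.

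Pax6, the paired and homeodomain factor of forebrain and eye progenitors, was the member with the smallest p. It measured 6.37 and 6.68 in wild type, 6.39 and 6.51 in heterozygous, and 6.06, 5.68 and 6.04 in null cells. The 3 null arrays lay below the other 4. The null minus wild type difference was -0.60 ± 0.16 (log2, SE; adjusted p = 0.882 and, before adjustment, 0.00618), and the null minus heterozygous difference was -0.52 ± 0.16 (adjusted p = 0.0801). The 4 other Pax6 probe sets were dim, with means from 3.39 to 4.63.

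Next by p were Nkx2-9, Nkx6-1 and Nkx2-6. Nkx2-9, a ventral neural tube factor, measured 6.63 and 6.39 in wild type, 6.74 and 6.75 in heterozygous, and 7.09, 6.72 and 6.72 in null cells, a null minus wild type difference of 0.33 (95% interval -0.02 to 0.68). Nkx6-1, a factor of motor neuron progenitors and of pancreatic beta cells, was above the limit only in null replicates 1 and 3 and entered the tests through them; as a description, its levels were 4.72 and 4.57 in wild type, 4.72 and 4.72 in heterozygous, and 4.95, 4.72 and 5.06 in null cells. Nkx2-6, known from the pharynx and heart, differed by 0.26 (-0.07 to 0.58), from levels of 6.05 and 5.65 in wild type, 6.05 and 6.09 in heterozygous, and 6.22, 6.05 and 6.05 in null cells. Nkx2-6 had the same value, 6.05243, on wild type replicate 1, heterozygous replicate 1 and null replicates 2 and 3. Nkx6-1 likewise repeated 4.72383 on wild type replicate 1, both heterozygous arrays and null replicate 2. Both intervals, of Nkx2-9 and Nkx2-6, included 0. The Nkx2-6 difference was 0.05 without wild type replicate 2 and 0.46 without wild type replicate 1, and that of Nkx2-9 was 0.21 without wild type replicate 2 and 0.20 without null replicate 1.

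Between null and heterozygous cells, Meox1 was the 1 member of 34 past the threshold (2.94%), against 8.96% of all genes, 5.0% higher and 3.96% lower. The median log2 difference was 0.05 over the members and 0.04 over all genes. An unadjusted p under 0.05 was found for 7 members (20.6%) and for 28.5% of all genes. Besides Meox1, Six4, Pax6, Nkx6-2, Pou3f1 and Irx6 already given, the 7 held Msx1, a target of BMP signalling. Msx1 measured 6.32 and 6.19 in wild type, 5.86 and 5.81 in heterozygous, and 6.82, 6.19 and 6.19 in null cells, with both heterozygous arrays lowest and a difference of 0.57 (adjusted p = 0.114). Its second probe set, from 4.75 to 5.07, did not follow this order. The brighter Msx1 probe set had the same value, 6.19428, on wild type replicate 2 and null replicates 2 and 3. The comparisons with heterozygous cells share their arrays, so they do not support each other.

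**Figure D4:**
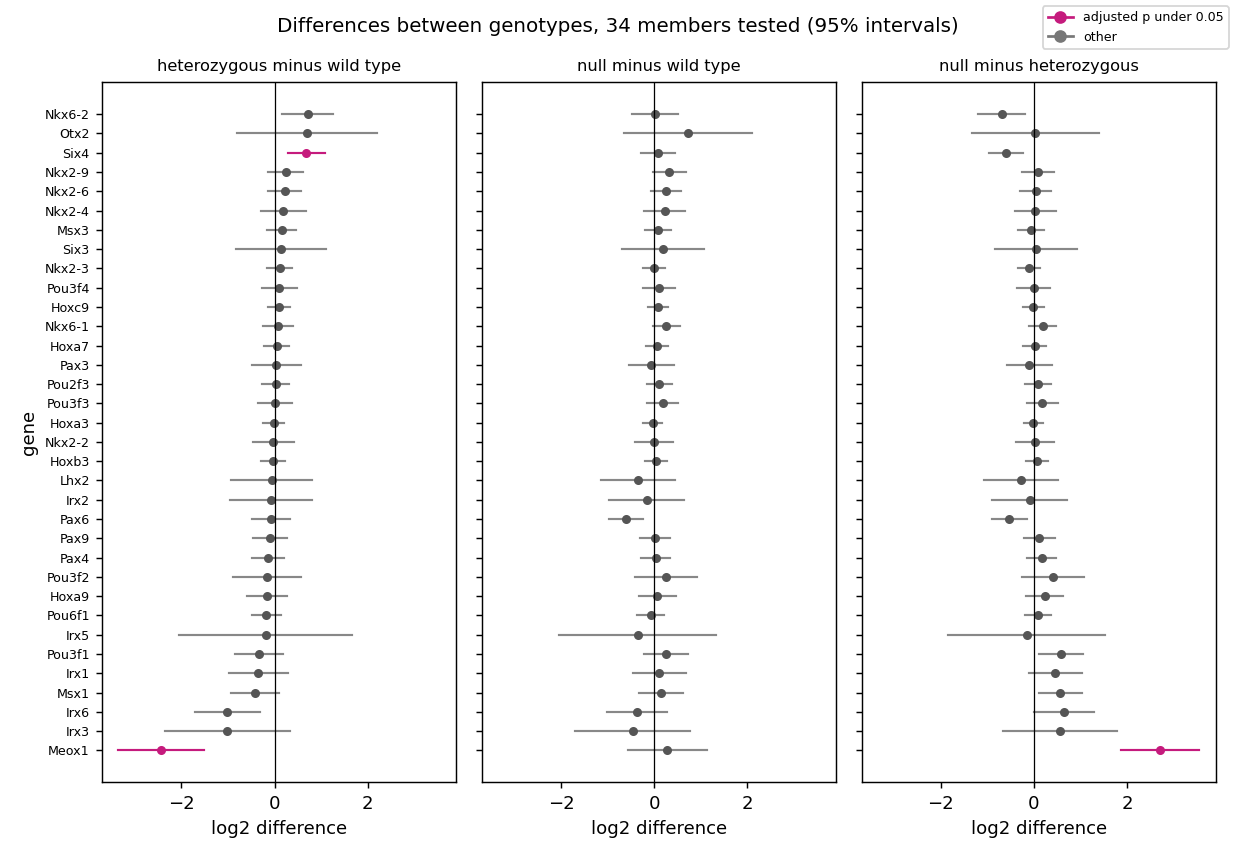
Log2 differences with 95% intervals for the 34 members tested, for heterozygous minus wild type, null minus wild type and null minus heterozygous. Pink marks an adjusted p under 0.05, which Meox1 reached in the comparisons with heterozygous cells and Six4 in that of heterozygous with wild-type cells.

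Several members spread widely between arrays of 1 genotype. Of the 34 tested, 7 (Irx2, Irx3, Irx5, Lhx2, Meox1, Otx2 and Six3) had a residual SD above the 95th percentile of all genes tested, 20.6% against the 5% that the percentile sets. The median residual SD was 0.38 (log2) for the 13 members above the 50th percentile, 0.16 for the 21 dimmer ones and 0.15 for all genes. Irx5 stood at the 99.7th percentile, Otx2 at the 99.4th and Irx3 at the 99.05th. Otx2 lay above the limit only on heterozygous replicate 1 (4.95) and null replicate 1 (6.12). It entered the tests through arrays where it was high, so its spread is a description.

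Irx genes encode homeodomain factors of the TALE class, and they lie in clusters: Irx3, Irx5 and Irx6 are neighbours among protein-coding genes in RefSeq, as are Irx1, Irx2 and Irx4. Irx3 measured 8.83 and 10.004 in wild type, 8.05 and 8.75 in heterozygous, and 8.98, 8.14 and 9.74 in null cells. Irx5 measured 6.64 and 8.37, then 7.16 and 7.46, then 7.45, 5.87 and 8.15 in the same order. Irx2 measured 7.31 and 8.05, then 7.51 and 7.70, then 7.46, 6.99 and 8.10. Wild type replicate 2 and null replicate 3 were the highest of the 7 arrays for all 3 genes, and null replicate 2 was lowest for Irx5 and Irx2. The genotype groups overlapped for Irx2 and Irx5. Both heterozygous arrays lay below both wild-type arrays for Irx3, with a difference of -1.02 whose 95% interval ran from -2.36 to 0.32, and the null arrays overlapped both groups. Irx1 ranged from 6.43 in heterozygous replicate 1 to 7.50 in null replicate 3, and Irx4 was dim, from 3.10 to 3.46.

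Six3 and, less closely, Lhx2, both forebrain and eye regulators, ran the other way. Six3, which represses Wnt targets in the anterior forebrain, measured 7.68 and 6.44 in wild type, 7.24 and 7.13 in heterozygous, and 7.35, 7.59 and 6.79 in null cells. Lhx2, a LIM homeobox factor of the cortex, measured 6.93 and 5.93, then 6.48 and 6.27, then 5.76, 6.58 and 5.93. Wild type replicate 1 and null replicate 2 were the highest 2 for both genes and the lowest 2 for Irx5. Lhx2 was lowest in null replicate 1, where Irx5 was 7.45, near its mean of 7.30. The 2 other Six3 probe sets had means of 3.68 and 2.85.

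**Figure D5:**
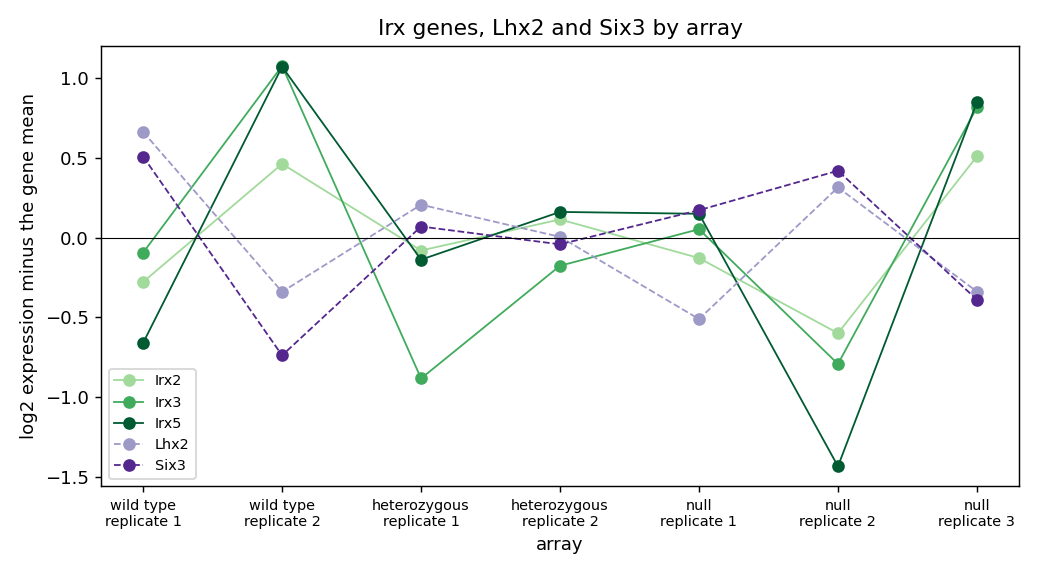
Log2 expression minus the gene's mean over 7 arrays for Irx2, Irx3 and Irx5 (green, solid) and for Lhx2 and Six3 (purple, dashed), by array; lines join the values of a gene and carry no order. The Irx genes are high in wild type replicate 2 and in null replicate 3, where Six3 and Lhx2 are low, and in null replicate 2 the reverse.

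Correlations over the 7 arrays were computed for the 15 pairs among Irx2, Irx3, Irx5, Lhx2, Otx2 and Six3, which had been picked for their spread; Meox1 was left out because its arrays fall into separate clusters. All p-values here are from exact two-sided permutation tests with Benjamini-Hochberg adjustment over the 15 pairs, of which 6 were under 0.05 before adjustment and 3 after. Irx2 and Irx5 gave Pearson's r = 0.97 (exact permutation p = 0.00139, adjusted 0.0208) and Spearman's rho = 0.93 (p = 0.00675, adjusted 0.0337). Irx2 and Six3 gave r = -0.92 (p = 0.00496, adjusted 0.0308, by exact permutation) and rho = -0.93 (p = 0.00675, adjusted 0.0337). Irx5 and Six3 gave r = -0.90 (p = 0.00615, adjusted 0.0308, by exact permutation) and rho = -0.93 with the same p as above. Without the 2 arrays farthest from the median of the first gene, r was 0.95, -0.83 and -0.95 for these 3 pairs.

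Pairs with Irx3 were weaker after adjustment. Irx3 and Irx5 gave r = 0.83 (exact permutation p = 0.0175, adjusted 0.0655) and rho = 0.75 (p = 0.0663, adjusted 0.199), and r fell to 0.49 without the farthest 2 arrays. Irx3 and Six3 gave r = -0.79 (exact permutation p = 0.0365, adjusted 0.0913) and rho = -0.54 (p = 0.236, adjusted 0.321), and r was 0.00 without wild type replicate 2 and null replicate 3, so this relation rested on those arrays. Irx5 and Lhx2 gave r = -0.75 (exact permutation p = 0.0502, adjusted 0.108) and rho = -0.75 (p = 0.0663, adjusted 0.199). Lhx2 gave r = -0.65 with Irx2, -0.62 with Irx3 and 0.70 with Six3 (exact permutation, adjusted p = 0.179, 0.189 and 0.154). With the genotype means subtracted, r was 0.97 for Irx2 and Irx5, 0.96 for Irx3 and Irx5, -0.90 for Irx5 and Six3 and -0.91 for Irx5 and Lhx2. In the 5 pairs of arrays within a genotype, each of Irx2, Irx3 and Irx5 moved opposite to Six3 in 5, opposite to Lhx2 in 4 and opposite to another of the 3 in 0. Pairs among the null arrays share arrays, and in groups of 2 the deviations from the mean mirror each other. The values within genotypes are thus not independent, and for genes picked by their spread they are a description.

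Sex-linked RNA moved with this pattern on some of the arrays. Xist was 5.40 in wild type replicate 1 and 5.14 in null replicate 2, the arrays lowest for Irx5, and 11.16 to 12.92 on the other 5. Eif2s3y, a Y-linked gene, was 10.06 and 9.80 on those arrays. It was 2.61 in wild type replicate 2, 2.79 in replicate 2 of the heterozygous group and 2.81 in null replicate 3. On these last 3 arrays Irx5 was 8.37, 7.46 and 8.15 and Six3 was 6.44, 7.13 and 6.79. Eif2s3y was also high, at 9.28 and 8.69, in heterozygous replicate 1 and null replicate 1. There Irx5 was 7.16 and 7.45 and Six3 was 7.24 and 7.35, so Y-linked RNA did not follow the pattern over all 7 arrays. Too few arrays share a kind of sex-linked RNA for a correlation within it, and its part in the pattern was not tested.

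The 250 bases before the start of Irx2 and Six3, a pair whose correlation passed the adjustment, and of Irx3, the cluster neighbour of Irx5, are shown from RefSeq promoters of GRCm38.p6, 5′ to 3′ on the gene's strand, with any match to the 3 motifs searched in capitals. Irx2 is at chr13:72628570-72628819 on the plus strand, Irx3 at chr8:91801655-91801904 on the minus strand and Six3 at chr17:85620584-85620833 on the plus strand.
Irx2: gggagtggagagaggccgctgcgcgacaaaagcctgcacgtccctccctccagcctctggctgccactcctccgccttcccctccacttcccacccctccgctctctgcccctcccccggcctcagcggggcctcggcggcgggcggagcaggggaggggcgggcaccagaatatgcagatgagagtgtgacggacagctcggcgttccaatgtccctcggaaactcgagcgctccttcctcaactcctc
Irx3: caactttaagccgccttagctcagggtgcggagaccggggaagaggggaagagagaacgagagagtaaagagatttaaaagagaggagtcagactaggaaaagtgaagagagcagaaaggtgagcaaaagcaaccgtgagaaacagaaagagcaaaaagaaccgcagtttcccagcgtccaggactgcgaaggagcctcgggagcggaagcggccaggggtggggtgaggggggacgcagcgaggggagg
Six3: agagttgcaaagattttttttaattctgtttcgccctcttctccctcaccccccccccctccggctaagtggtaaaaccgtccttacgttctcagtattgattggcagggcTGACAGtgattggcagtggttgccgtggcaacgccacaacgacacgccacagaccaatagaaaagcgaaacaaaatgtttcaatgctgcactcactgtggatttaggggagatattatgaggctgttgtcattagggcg
The Irx2 and Irx3 stretches hold 19 and 13 CpG dinucleotides and Six3 holds 10, against a median of 6 over all promoters.

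The motifs were the homeodomain core TAATTA, the Meis-type TALE site TGACAG and the POU octamer ATGCAAAT, searched on both strands, and none of the 3 contains another. The capitals in Six3 are a TGACAG match, and the Irx2 and Irx3 stretches hold 0 of the 3 motifs. TGACAG occurred in 15.9% of all 32851 promoters of this length and in 12 of 74 promoters of 62 members (16.2%). TAATTA occurred in 4.84% of all promoters and in 5 of the 74 (6.76%), and ATGCAAAT in 1.60% of all and in 0 of the 74. The members' shares were near those of all promoters, and a match describes letters only.

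Otx2, a factor of the forebrain, midbrain and choroid plexus, measured 3.66 and 4.69 in wild type, 4.95 and 4.79 in heterozygous, and 6.12, 4.39 and 4.20 in null cells. Null replicate 1 stood above the other 6. The choroid plexus genes Ttr and Folr1 were also highest there, at 14.32 and 6.89 against 12.50 to 13.69 and 5.05 to 6.14 on the other arrays. The other 2 genes of that list were not: Foxj1 and Rarres2 were 6.07 and 8.51 there and highest in heterozygous replicate 1, at 6.69 and 9.59. Their part in the Otx2 value was not tested.

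Lists of genes that work with these factors were read in the same fit. Of 7 partner genes of Six4, Pax6 and their relatives that were tested, 3 were lower in heterozygous than in wild-type cells and 0 higher, where 5.95% of all genes were lower: Eya1, a coactivator for Six4 and its relatives (log2 difference -0.73 ± 0.11, SE, adjusted p = 0.0150), and the corepressors Tle2 (-1.11 ± 0.20, adjusted p = 0.0220) and Tle4 (-0.61 ± 0.13, adjusted p = 0.0361). The same 3 were higher in null than in heterozygous cells, by 0.78, 0.93 and 0.52, where 5.0% of all genes were higher. The list's median was -0.44 in the first comparison, beside -0.04 over all genes. Of the other 4, Dach2 differed by 0.92, Eya3 by 0.09, Tle1 by 0.08 and Tle3 by -0.44, without passing.

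Over all genes, 4.20% passed higher and 5.95% lower in heterozygous than in wild-type cells. Between null and heterozygous cells, 5.0% passed higher and 3.96% lower. Of 6 LIM cofactors, Lmo2 was lower in heterozygous than in wild-type cells (-0.91 ± 0.16, adjusted p = 0.0226), and Lmo1 was higher in null than in heterozygous cells (0.44, adjusted p = 0.0353). Among 10 Sox and bHLH genes of glia, Sox9 was higher in heterozygous cells (1.34 ± 0.17, adjusted p = 0.00962), and Sox3, Olig2 and Sox5 were lower (-0.80, -0.67 and -0.71). Between null and heterozygous cells, Olig2 and Sox3 were higher (0.57 and 0.57) and Sox9 was lower (-0.94). Of 12 other homeobox genes, Satb1 was lower in heterozygous cells (-0.53 ± 0.12, adjusted p = 0.0436), and this 1 call was near the share of all genes. Among 7 Hox cofactors of the Meis, Pbx and Pknox families and 15 Polycomb and trithorax genes, 0 passed in limma in any comparison, with 2 and 3 at an unadjusted p under 0.05 between heterozygous and wild-type cells, where 29.9% of all genes reached this. Between null and wild-type cells 0 genes of these 6 lists passed, and 5.14% of all genes had an unadjusted p under 0.05 in limma. This was reached by 1 of 7 Eya, Dach and Tle genes, 3 of 6 LIM cofactors and 1 of 10 Sox or bHLH genes. It was also reached by 1 of 12 other homeobox genes, 1 of 15 Polycomb or trithorax genes and 0 of 7 Hox cofactors.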

How the data were processed

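RNA of 7 sorted tumour samples was measured on 3' expression arrays. The deposited values are log2 expression made by the authors with RMA in Partek 6.6, per the submitters' processing notes. RMA sets arrays to a common distribution, so a shift of all genes cannot be seen, and the file holds no detection calls. Of 22690 probe sets, 64 controls were set aside, 20380 named 1 gene by the platform annotation, 691 several and 1555 none. All 90 members matched RefSeq symbols (GRCm38.p6).

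Each gene was read from its brightest probe set. It was tested where this lay above the array's 30th percentile of probe sets other than controls on at least 2 arrays, which left 9243 genes. With limma 3.58.1 (R 4.3.3), a model with 1 mean per genotype was fitted over the 7 arrays (4 residual degrees of freedom, two-sided tests), with Benjamini-Hochberg adjustment over the genes tested and a threshold of 0.05. The fit was tested on simulated data. The number of arrays limits the precision.

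Members, partner lists and markers were chosen with earlier results of these data known. Named were members past the threshold, the 10 brightest, the 4 of smallest p in each comparison, and those nearest the limit. Irx1, Pou3f3, Msx1, Otx2, Lhx2 and other members named beyond this were chosen after their values were seen. Alternatives covered the filter, probe set choice, centring, variance model, samples fitted, a 3' to 5' covariate, a replicate block, and each array left out.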

Additional observations from a re-analysis of the deposited data

How the results depend on the processing

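Across 12 named member results and 213 alternative values, 0 changed sign. The 12 had been picked for small p in these data, and many alternatives alter the p-value and not the difference. Among them were Nkx6-2 and Nkx6-1, which entered the tests through the group where they were high. The lack of sign changes was thus largely set in advance. In heterozygous against wild type, 2 members passed, out of 938 genes. It was 1 (Meox1) with no filter on dim genes, a filter at the 50th percentile, a filter on the mean, averaged probe sets, shared probe sets left out, median centring, an intensity trend or the 3' to 5' covariate (372 genes). It was 0 without moderation (97 genes), with only the groups compared (172), with the replicate block (217) and without both arrays that held Xist and Y-linked RNA (0 genes, a setting chosen after seeing the data). Leaving out 1 array gave 0 to 2 members and 33 to 802 genes. In null against heterozygous cells, 1 member passed, out of 828 genes. It was 0 without moderation (2 genes), with the replicate block (25) and without both Xist and Y-linked arrays (0 genes). Leaving out 1 array gave 0 to 3 members and 90 to 732 genes; Pou3f1 and Six4 were added without heterozygous replicate 2. Only the groups compared gave 355 genes and the 3' to 5' covariate 471, with Meox1 in both. In null against wild type the count of members was 0 under each alternative. Meox1 kept its call against wild type in 12 of 19 alternatives (log2 difference -2.95 to -1.91, adjusted p 0.0121 to 0.148) and against null in 15 of 19 (2.12 to 3.23, 0.00905 to 0.175). The cause of these changes was not tested. Deviations of same-numbered arrays from their group means correlated at -0.41 to 0.11. In groups of 2 these deviations mirror each other, so the values cannot tell whether replicate numbers pair the arrays.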
